A study of Saccharomyces cerevisiae with 17 samples.

Results

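The 39 genes described here form the DNA damage checkpoint and repair set of Saccharomyces cerevisiae, measured on 17 Affymetrix Yeast Genome 2.0 arrays. They were taken by name from a list of checkpoint kinases, checkpoint clamp and mediator proteins, regulators of ribonucleotide reductase, recombination and excision repair factors, and bypass polymerases. All 39 were found, each with 1 probe set, out of 5449 genes tested, and the mean level of each lay above the background of the array. DDC2 appears in the array annotation under its other name, LCD1.

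Budding yeast was grown on the International Space Station or, after the flight, in a ground incubator that followed the logged flight temperature. There were 6 groups, of 3 strains and 2 conditions. The FLO1 strain, BY4742 [FLO1], had 2 microgravity arrays and 3 ground arrays. The FLO8 strain, BY4742::FLO8, had 3 arrays in microgravity and 3 on the ground, as did the BY4742 wild type (WT), the parent without either construct. In every group cells waited in saline, were activated with rich YPD medium (5 days after launch for the flight cultures), grew for 72 h at 23 °C, and were filtered and fixed in RNAlater. The flocculins that FLO1 encodes make cells stick together, and FLO8 encodes an activator of the adhesin gene FLO11. The labels name no promoter for FLO1, and do not say whether a strain was 1 clone or whether replicates were separate cultures, so p-values measure the spread between these arrays, which may be technical. The ground cultures followed the flight, so effects of the run, of microgravity and of other conditions of the flight cannot be told apart.

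DNA damage in yeast is sensed by the kinases Mec1, the relative of human ATR, and Tel1, the relative of human ATM. Mec1 works with its partner Ddc2 on single-stranded DNA, and Tel1 is brought to broken ends by the MRX complex of Mre11, Rad50 and Xrs2. A ring-shaped clamp and its loader help Mec1, mediators such as Rad9 and Mrc1 pass the signal to the kinase Rad53, and Rad53 acts through Dun1 to raise the supply of DNA building blocks. Much of this signalling works by phosphorylation, which an array does not measure. Transcripts such as HUG1 and the RNR genes are the classical transcriptional readout of the pathway. In a bulk culture, more cells that express a gene and more RNA per cell cannot be told apart.

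Each value is the log2 signal of a probe set, as deposited, and a difference of 1 means 2-fold. Correlations between arrays over the genes tested ran from 0.882 to 0.996, and 4 flight arrays stood apart from their replicates. They are WT replicate 3, FLO1 replicate 1, and FLO8 replicates 2 and 3. Their root mean square distances from the group mean were 0.35 to 0.58 over all genes, against 0.097 to 0.34 on ground arrays. FLO1 has 2 flight arrays, so both share the value of 0.35 and this distance cannot tell them apart. The 4 were set as a list and not by a cut-off of this distance. WT ground replicate 3, at 0.34, was not on it, so leaving out the 4 removes scatter from flight arrays only. The 3′ minus 5′ signal of control transcripts, a measure of RNA integrity, averaged higher in flight in each strain: 1.34 in flight against 1.08 on the ground in FLO1, 1.19 against 1.14 in FLO8, and 1.18 against 1.09 in WT. Flight and ground did not overlap in FLO1 and WT, and FLO1 flight replicate 1 was the highest of the 17 arrays at 1.41. FLO1 read 12.52 to 12.90 on the arrays of the FLO1 strain and 7.81 to 8.87 on WT arrays. FLO11 read 11.24 to 13.02 in the strain labelled BY4742::FLO8, against 8.11 to 9.43 in WT. The FLO8 probe set itself read lower in the strain labelled BY4742::FLO8, at 7.58 to 8.31, than in WT, at 8.94 to 9.51. Directions drawn for that strain rest on its label.

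On average over the 3 strains, MEC1 was the 1 gene of the 39 that passed the test for a flight difference. Its signal rose in flight by 0.38 on the log2 scale, which is 1.30-fold (SE 0.09, 95% confidence interval 0.19 to 0.57, adjusted p = 0.0334 in limma). Of all 5449 genes, 4.31% were called in the same comparison, so a count of 1 in 39 does not exceed the background (2.31% of all genes were called higher and 2% lower). Before adjustment 9 of the 39 had a p under 0.05, where all genes gave 21.7%, which is again near the background. The 9 were MEC1, RAD52, XRS2, MRE11, RAD57, CRT10, RAD59, RAD17 and RAD2, and every one of them was higher in flight, where 13.5% of all genes were higher and 8.15% lower at that threshold. Of the 39 differences 29 lay above 0, with a median of 0.15, beside a median of 0.03 and 54.9% above 0 over all genes.

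Within single strains no gene of the set passed. In the FLO1 strain 0 of 39 were called (0.0367% of all genes were), and 3 had an unadjusted p under 0.05, where all genes gave 13.1%. For the FLO8 strain the counts were 0 of 39 called (0% of all genes) and 4 at the unadjusted threshold (6.55% of all genes). In WT they were 0 of 39 called (0.147% of all genes) and 4 at the unadjusted threshold (10% of all genes). The median difference was 0.21 in the FLO1 strain, with 30 of 39 above 0 (all genes 0.01, 51.4% above 0). It was 0.01 in the FLO8 strain, with 21 of 39 above 0 (all genes 0.01, 51.8%). WT had a median of 0.18 and 30 of 39 above 0 (all genes 0.06, 58.9%). The plot of flight differences with their confidence intervals shows all 39 genes in the order of their roles.

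**Figure D1:**
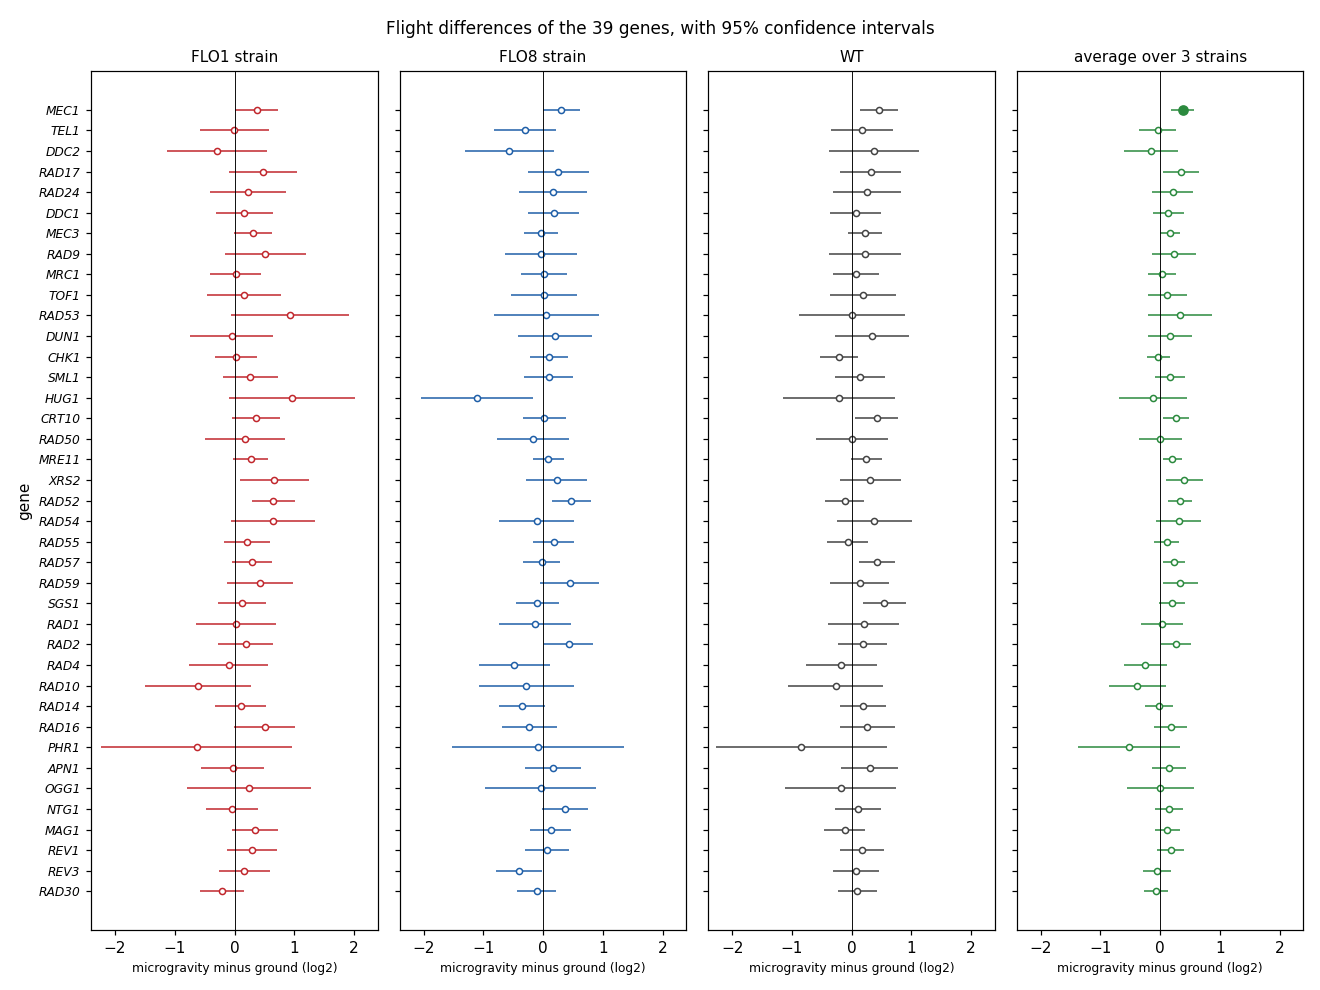
Microgravity minus ground difference in log2 level (x axis) of each of the 39 genes (y axis, ordered by role), in 1 panel for each strain and 1 for the average over the 3 strains. Points are limma estimates (filled at an adjusted p under 0.05) and lines are 95% confidence intervals. Most points lie within 0.5 of 0 (38 of 39 in the average), and the interval of MEC1 in the average runs from 0.19 to 0.57.

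MEC1 (YBR136W) encodes the sensor kinase that starts the checkpoint. Its level was 9.65 on both FLO1 flight arrays, against 9.21, 9.38 and 9.25 on FLO1 ground arrays. FLO8 flight arrays read 9.66, 9.63 and 9.29, and FLO8 ground arrays 9.04, 9.20 and 9.43. In WT the flight arrays read 9.38, 9.46 and 9.38, against 9.14, 8.75 and 8.98 on the ground. Every flight array lay above the mean of its own strain's ground arrays, 8 of 8, which also held for XRS2, a gene that was not called. The share of all genes with 8 of 8 was not counted. MEC1 flight and ground arrays did not overlap in the FLO1 strain and WT, whereas in the FLO8 strain the lowest flight array fell inside the ground range. By strain the difference was 0.37 in FLO1 (SE 0.17, adjusted p = 0.358), 0.31 in FLO8 (SE 0.15, adjusted p = 0.755) and 0.45 in WT (SE 0.15, adjusted p = 0.249). The average call ended with the replicate number as a block (0.38, adjusted p = 0.0586) and with the 3′ minus 5′ signal, which moved with flight, as a covariate (0.44, adjusted p = 0.558). It also ended, at adjusted p of 0.0587 to 0.0832 and differences of 0.34 to 0.39, when any one of 8 arrays was left out: FLO1 flight replicate 1, WT flight replicate 2, FLO1 ground replicates 1, 2 and 3, FLO8 ground replicates 1 and 2, and WT ground replicate 2.

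The other sensor genes gave no call. TEL1, the kinase of the MRX branch, had an average flight difference of -0.04 (adjusted p = 0.890) and DDC2, the Mec1 partner that binds coated single-stranded DNA, one of -0.16 (adjusted p = 0.696). DDC2 read 7.86 on FLO8 flight replicate 3 and 7.82 on WT ground replicate 3, below the other 15 arrays, which lay between 8.68 and 9.41.

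The checkpoint clamp of Rad17, Mec3 and Ddc1, with the loader subunit Rad24, had 4 of 4 average differences above 0, from 0.14 (DDC1) to 0.35 (RAD17). Of all genes 54.9% lay above 0, and 0 of the 4 passed (adjusted p = 0.176 to 0.539). MEC3 read 9.66 and 9.35 on FLO1 flight arrays, against 9.14, 9.18 and 9.28 on FLO1 ground arrays. In WT it read 9.34, 9.21 and 9.21 in flight, against 9.15, 8.89 and 9.06 on the ground. On FLO8 arrays it read 9.38, 9.33 and 9.09 in flight, against 9.26, 9.43 and 9.22 on the ground. Flight lay above ground without overlap in the FLO1 strain and WT and overlapped it in the FLO8 strain. The differences were 0.31 (FLO1, adjusted p = 0.405), -0.04 (FLO8, adjusted p = 0.966) and 0.22 (WT, adjusted p = 0.655).

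The mediators Rad9, Mrc1 and Tof1, which carry the signal from the sensors to Rad53 (Mrc1 and Tof1 at stalled forks), had average differences of 0.24, 0.03 and 0.12, with none passing (adjusted p = 0.445, 0.886 and 0.681). Among the effector kinases, CHK1, which holds cells before anaphase, varied little between arrays (residual SD 0.15) and had an average difference of -0.03 (adjusted p = 0.884). DUN1 had one of 0.16 (adjusted p = 0.620) and RAD53 one of 0.33 (adjusted p = 0.459).

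The regulators of ribonucleotide reductase, the enzyme that makes deoxyribonucleotides, gave no call. CRT10, a negative regulator of RNR gene transcription, read 10.35 and 10.24 on FLO1 flight arrays, against 9.95, 9.98 and 9.90 on FLO1 ground arrays. On FLO8 arrays it read 10.44, 9.83 and 9.81 in flight, against 9.97, 10.06 and 9.99 on the ground. WT flight arrays read 10.32, 10.23 and 9.87, against 9.74, 9.80 and 9.62 on the ground. The flight arrays were higher without overlap in the FLO1 strain and WT, while in the FLO8 strain 1 flight array lay above the ground range and 2 lay below it. The differences were 0.35 (FLO1, adjusted p = 0.443), 0.02 (FLO8, adjusted p = 0.981), 0.42 (WT, adjusted p = 0.408) and 0.26 on average (adjusted p = 0.144). Without the 4 arrays that stood apart, CRT10 was called on average (0.43, adjusted p = 0.00245) and in WT (0.55, adjusted p = 0.00912), in fits that called 18.7% and 8.52% of all genes. SML1, which encodes an inhibitor of the enzyme that is degraded after damage, had an average difference of 0.17 (adjusted p = 0.437).

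In the MRX complex, MRE11, the nuclease subunit, was the gene of the set with the smallest spread between replicates (residual SD 0.097). It read 8.60 and 8.29 on FLO1 flight arrays, against 8.20, 8.14 and 8.19 on FLO1 ground arrays. FLO8 flight arrays read 8.31, 8.44 and 8.22, against 8.21, 8.30 and 8.18 on the ground. In WT the flight arrays read 8.37, 8.38 and 8.53, against 8.13, 8.17 and 8.24. Flight was above ground without overlap in the FLO1 strain and WT, and 6 of the 8 flight arrays lay above the highest ground array of any strain. RAD59 had the same count of 6, and the share of all genes was not counted. The average difference of MRE11 was small, 0.20 (SE 0.07, adjusted p = 0.127).

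XRS2, the MRX subunit that binds Tel1, read 8.27 and 7.28 on FLO1 flight arrays, against 7.15, 7.04 and 7.12 on FLO1 ground arrays. FLO8 flight arrays read 6.96, 7.63 and 6.96, against 6.82, 6.93 and 7.12 on the ground, and WT flight arrays 7.31, 7.41 and 7.54, against 7.42, 7.01 and 6.88. The groups did not overlap in the FLO1 strain, where FLO1 flight replicate 1 was far above its replicate, and they overlapped in the FLO8 strain and WT. All 8 flight arrays lay above the mean of their own strain's ground arrays, by as little as 0.009 on FLO8 replicate 1. The differences were 0.67 (FLO1, SE 0.27, adjusted p = 0.300), 0.23 (FLO8, adjusted p = 0.871), 0.31 (WT, adjusted p = 0.769) and 0.40 on average (SE 0.14, adjusted p = 0.122). RAD50, the third subunit, had an average difference of 0.00 (adjusted p = 0.990).

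All 6 recombination genes had average differences above 0, from 0.11 to 0.34, where 54.9% of all genes lay above 0. By strain 6 of 6 lay above 0 in FLO1, 3 of 6 in FLO8 and 4 of 6 in WT. In the average 0 of 6 passed. RAD52, whose product is central to homologous recombination, came nearest. It read 8.92 and 8.95 on FLO1 flight arrays, against 8.35, 8.25 and 8.26 on FLO1 ground arrays. In the FLO8 strain the flight arrays read 8.49, 9.10 and 8.92, and the ground arrays 8.48, 8.44 and 8.18. In WT flight gave 8.52, 8.58 and 8.48, and ground 8.66, 8.54 and 8.73. Flight was above ground without overlap in both engineered strains, by a wide gap in the FLO1 strain and a narrow one in the FLO8 strain, and the WT groups overlapped with flight the lower on average. The differences were 0.65 (FLO1, SE 0.17, adjusted p = 0.179), 0.47 (FLO8, SE 0.15, adjusted p = 0.672), -0.11 (WT, SE 0.15, adjusted p = 0.894) and 0.34 on average (SE 0.09, adjusted p = 0.0534). The average passed in 2 of the 17 fits that left out 1 array. These left out FLO8 flight replicate 1 (0.39, adjusted p = 0.0233) or FLO8 flight replicate 2 (0.29, adjusted p = 0.0479), and called 4.13% and 7.52% of all genes. In the 8 other settings it passed in 0.

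SGS1, the helicase that takes apart recombination intermediates, read 9.49, 9.41 and 9.11 on WT flight arrays, against 8.81, 8.95 and 8.60 on WT ground arrays. The FLO1 flight arrays read 9.12 and 9.37, against 9.14, 9.08 and 9.14, and the FLO8 flight arrays 9.37, 8.73 and 9.05, against 9.19, 9.19 and 9.06. Only in WT did the groups not overlap, and the WT ground arrays were the low ones: each lay below every ground array of the engineered strains. Of all genes, 11.2% lay above WT on the ground without overlap in FLO1 and 10.9% in FLO8. The difference was 0.55 in WT (SE 0.17, adjusted p = 0.210), 0.13 in FLO1 (adjusted p = 0.810) and -0.10 in FLO8 (adjusted p = 0.921). Without the 4 arrays that stood apart the WT difference was 0.66. With array weights SGS1 was called in WT (0.56, adjusted p = 0.00572 in limma), where 11% of all genes were called.

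RAD57, whose product works with Rad55 in recombination, read 10.02 and 9.67 on FLO1 flight arrays, against 9.66, 9.50 and 9.48 on FLO1 ground arrays. On FLO8 arrays flight gave 9.65, 9.53 and 9.41, and ground 9.59, 9.64 and 9.43. WT flight arrays read 10.02, 9.76 and 9.86, and WT ground arrays 9.55, 9.53 and 9.28. Flight was above ground without overlap in WT and narrowly in the FLO1 strain, and overlapped it in the FLO8 strain. The differences were 0.30 (FLO1, adjusted p = 0.443), -0.03 (FLO8, adjusted p = 0.976), 0.43 (WT, adjusted p = 0.249) and 0.23 on average (adjusted p = 0.128). RAD55 read 8.28 and 8.08 on FLO1 flight arrays, 8.34, 8.05 and 8.30 on FLO8 flight arrays and 8.01, 7.79 and 7.39 on WT flight arrays, and 7.74 to 8.16 on the 9 ground arrays, and its average flight difference was 0.11 (adjusted p = 0.547). RAD59, a Rad52 relative, had one of 0.33 (adjusted p = 0.175) and RAD54, a motor protein that moves along DNA, one of 0.31 (adjusted p = 0.330).

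**Figure D2:**
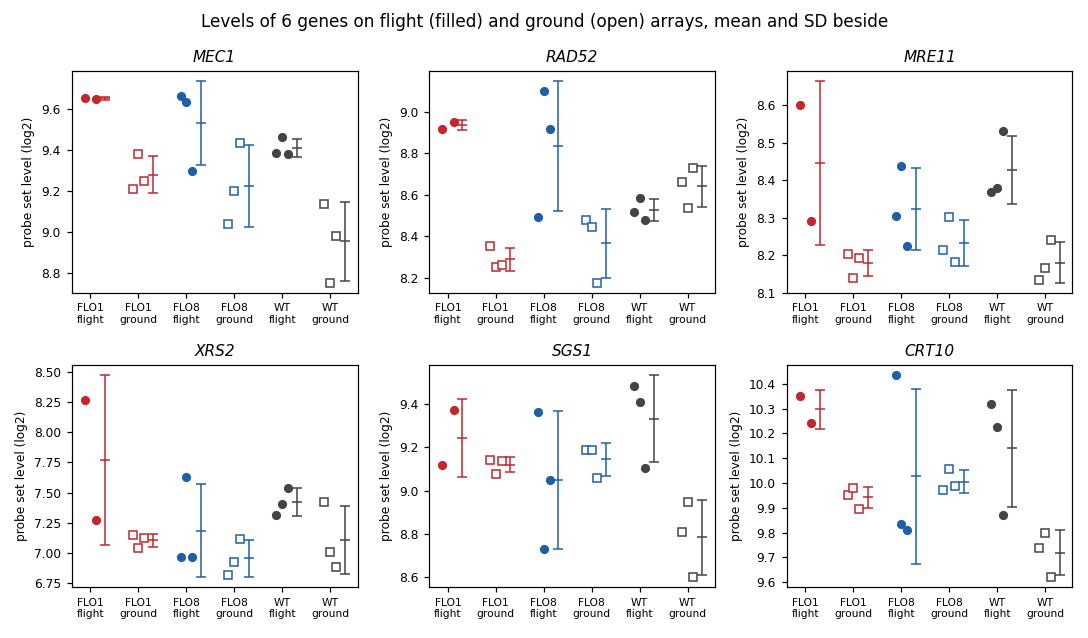
Log2 probe set level (y axis) of MEC1, RAD52, MRE11, XRS2, SGS1 and CRT10 on each array, by strain, with filled symbols for microgravity and open symbols for ground. Bars beside the symbols are the mean and SD of each group (n = 3, and 2 for FLO1 in microgravity). MEC1 and XRS2 flight arrays lie above the mean of their strain's ground arrays in all 3 strains, and RAD52 flight arrays of WT (8.48 to 8.58) overlap the WT ground arrays (8.54 to 8.73).

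The nucleotide excision repair genes, which remove bulky lesions such as those made by ultraviolet light, were split, with 3 of 6 average differences above 0 and 0 of 6 passing. RAD2, an endonuclease that cuts 3′ of the lesion, read 9.68, 9.35 and 9.62 on FLO8 flight arrays, against 8.97, 9.10 and 9.29 on FLO8 ground arrays. It read 9.27 and 9.76 on FLO1 flight arrays, against 9.36, 9.41 and 9.21, and 9.64, 9.83 and 9.45 on WT flight arrays, against 9.38, 9.16 and 9.83. The groups were apart in the FLO8 strain only. The difference there was 0.43 (SE 0.19, adjusted p = 0.744), and the average was 0.26 (adjusted p = 0.196). RAD16, part of a complex that searches untranscribed DNA, read 10.69 and 10.17 on FLO1 flight arrays, against 10.03, 9.84 and 9.89 on FLO1 ground arrays. In FLO8 it read 10.09, 9.56 and 9.40 in flight, against 10.07, 9.88 and 9.80, and in WT 10.29, 10.10 and 10.10, against 10.04, 10.20 and 9.47. Flight lay above ground in the FLO1 strain and the groups overlapped elsewhere. The difference was 0.51 in FLO1 (SE 0.24, adjusted p = 0.384), and with the 3′ minus 5′ signal as a covariate it was -0.03.

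RAD14, a damage recognition factor, read 9.83, 9.18 and 9.80 on FLO8 flight arrays, against 10.12, 9.89 and 9.86 on FLO8 ground arrays. On WT flight arrays it read 10.41, 10.33 and 10.07, against 10.04, 10.26 and 9.95 on WT ground arrays, and on FLO1 flight arrays 10.28 and 10.17, against 10.29, 10.08 and 9.99. FLO8 flight arrays lay below their ground arrays, while the other strains overlapped. The FLO8 flight difference was -0.36 (SE 0.18, adjusted p = 0.755). RAD4, whose product recognises the lesion, and RAD10, part of the nuclease that cuts 5′ of it, were 2 of the 3 genes with a difference below 0 in all 3 strains, and averaged -0.25 (adjusted p = 0.406) and -0.39 (adjusted p = 0.335). For each of the 2 genes, 3 of the 8 flight arrays lay above the ground mean of their strain. The largest RAD10 drops were on flight arrays that stood apart: -1.21 on FLO1 replicate 1, -1.06 on FLO8 replicate 2 and -0.93 on WT replicate 3. RAD1, the partner of Rad10, had an average of 0.03 (adjusted p = 0.935).

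The third gene below 0 in all 3 strains was PHR1, the photolyase that reverses ultraviolet damage directly, at -0.63 in FLO1, -0.09 in FLO8 and -0.85 in WT (adjusted p = 0.746 to 0.981). The base excision genes APN1, NTG1 and OGG1, which encode an endonuclease and glycosylases for oxidised bases, had average differences of 0.15, 0.14 and 0.00 (adjusted p = 0.554, 0.457 and 0.994). MAG1, the glycosylase for alkylated bases, read 11.21 and 10.91 on FLO1 flight arrays, against 10.67, 10.77 and 10.73 on FLO1 ground arrays. It read 10.60, 10.72 and 10.70 on FLO8 flight arrays, against 10.57, 10.49 and 10.59, and 10.71, 10.71 and 10.96 on WT flight arrays, against 10.71, 10.71 and 11.31. Flight was above ground in both engineered strains, in the FLO8 strain by very little, and WT ground replicate 3 was the highest array of the 17. The differences were 0.34 (FLO1, adjusted p = 0.443), 0.13 (FLO8, adjusted p = 0.889) and -0.12 (WT, adjusted p = 0.898).

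Of the bypass polymerases, which copy past lesions, REV3, the catalytic subunit of polymerase zeta, read 9.31, 8.67 and 8.83 on FLO8 flight arrays, against 9.28, 9.34 and 9.39 on FLO8 ground arrays. It read 9.71 and 9.28 on FLO1 flight arrays, against 9.26, 9.36 and 9.35, and 9.40, 9.16 and 8.88 on WT flight arrays, against 8.96, 9.12 and 9.15. The FLO8 flight arrays held the 2 lowest FLO8 readings and overlapped the ground arrays. The FLO8 difference was -0.41 (SE 0.18, adjusted p = 0.744). REV1 and RAD30 (polymerase eta) had average differences of 0.18 (adjusted p = 0.343) and -0.07 (adjusted p = 0.689).

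Counted by arrays that do not overlap, flight lay above ground for 15 of the 39 genes in the FLO1 strain, 4 in the FLO8 strain and 6 in WT, where all genes gave 22.9%, 6.57% and 10.5%. It lay below ground for 2, 2 and 1 genes in the same strains (18.5%, 4.39% and 5.51% of all genes). MEC1, MEC3, MRE11, RAD52, RAD57, MAG1 and CRT10 were above in 2 strains, 7 of 39 genes against 7.69% of all genes, and 0 of 39 were above in all 3 strains (0.771% of all genes). The difference was above 0 in all 3 strains for 14 of the 39 genes (27.2% of all genes) and below 0 in all 3 for 3 (19.9%).

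HUG1, a small inhibitor of ribonucleotide reductase that is strongly induced by damage, varied widely from array to array. It read 13.12 and 10.86 on FLO1 flight arrays, against 11.07, 10.88 and 11.12 on FLO1 ground arrays. FLO8 flight arrays read 10.77, 11.16 and 9.94, against 12.27, 11.29 and 11.64 on the ground. In WT it read 10.94, 10.80 and 11.16 in flight, against 11.35, 11.01 and 11.17. FLO1 flight replicate 1 was the highest array and its replicate lay just below the lowest FLO1 ground array, whereas in the FLO8 strain every flight array lay below every ground array. The differences were 0.96 (FLO1, SE 0.49, adjusted p = 0.425), -1.11 (FLO8, SE 0.44, adjusted p = 0.744) and -0.21 (WT, SE 0.44, adjusted p = 0.942).

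FLO1 flight replicate 1 decided several of these values. On it 4 genes of the set stood more than 1 above the FLO1 ground mean, namely HUG1 (by 2.09), RAD53 (1.79), XRS2 (1.16) and RAD54 (1.10), and 2 stood more than 1 below it, PHR1 (-1.35) and RAD10 (-1.21). Over all genes 6.29% and 5.23% did so on that array. On FLO1 flight replicate 2 no gene of the set was more than 1 away, and HUG1, RAD53 and XRS2 were -0.17, 0.08 and 0.17 from the ground mean. With replicate 1 as the single FLO1 flight array, HUG1 (2.09, adjusted p = 0.00711), RAD53 (1.79, adjusted p = 0.0297) and XRS2 (1.16, adjusted p = 0.0174) passed the FLO1 flight test, under the assumption that the lone array varies like the other groups. In that fit 9.36% of all genes were called, so 3 of 39 does not exceed the background. The array also had the highest 3′ minus 5′ signal, and the part of RNA integrity in these values was not tested.

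Other genes of ribonucleotide reductase and the damage response, 13 on a longer list of repair genes, lay on both sides on the same array. FLO1 flight replicate 1 was above the FLO1 ground range for 7 of the 13 and below it for 6, where all genes gave 43.1% above and 44.2% below. The genes named next were chosen after their values were seen. DIF1, which controls where the small subunit lies in the cell, read 11.02 and 9.44 on FLO1 flight arrays, against 9.24 to 9.39 on FLO1 ground arrays. RNR3, the damage-inducible large subunit, read 11.35 and 10.48 in flight, against 10.35 to 10.54 on the ground. PLM2, a gene whose product binds chromatin, read 5.61 and 6.40 in flight, against 7.27 to 7.34 on the ground, a difference of -1.30 (SE 0.31, adjusted p = 0.169). DIF1 and RNR3 were thus high on replicate 1, while PLM2 was low on both flight arrays.

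**Figure D3:**
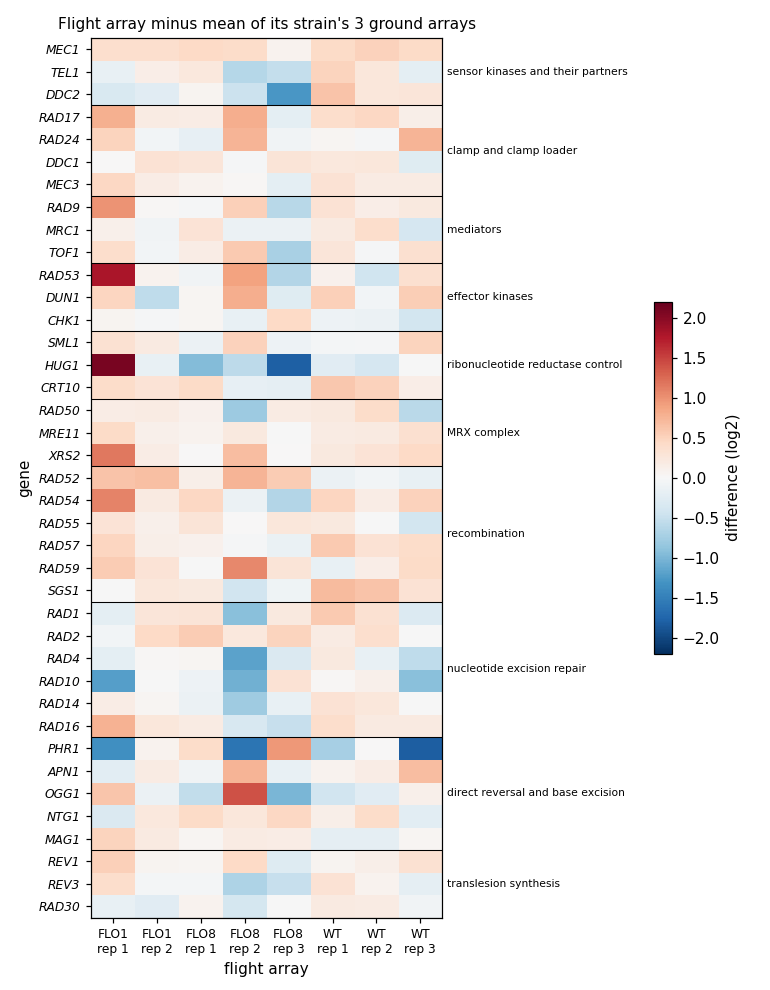
Level of each gene (rows, ordered by role) on each of the 8 flight arrays (columns) minus the mean of the 3 ground arrays of its strain, in log2, as a colour scale. MEC1 and XRS2 are above 0 on all 8 arrays, and HUG1 reaches 2.09 on FLO1 replicate 1 and -1.79 on FLO8 replicate 3.

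Other flight arrays that stood apart also carried large single values. On FLO8 flight replicate 2, OGG1 stood 1.40 and RAD59 1.06 above the FLO8 ground mean, and PHR1, RAD4 and RAD10 stood at -1.61, -1.17 and -1.06. On FLO8 flight replicate 3 HUG1 and DDC2 were at -1.79 and -1.28, and on WT flight replicate 3 PHR1 was at -1.82. No gene of the set was more than 1 away on the other 4 flight arrays.

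Within the set, PHR1 had the widest spread between replicate arrays (residual SD 0.92), wider than 99.0% of all genes, followed by HUG1 (0.60), OGG1 (0.59), RAD53 (0.56) and RAD10 (0.50). PHR1, shown because of that spread, read 7.65 and 9.09 on FLO1 flight arrays, against 9.01, 9.15 and 8.84 on the ground. In FLO8 it read 9.14, 7.13 and 9.69, against 8.40, 8.65 and 9.18, and in WT 8.24, 8.98 and 7.15, against 8.56, 8.07 and 10.27. Its 3 lowest readings were on flight arrays that stood apart, and its highest was on WT ground replicate 3. OGG1 read 6.10, 8.04 and 5.64 on FLO8 flight arrays, against 6.67, 6.74 and 6.51 on FLO8 ground arrays, so that its highest and lowest readings of the study were replicates of 1 group. RAD53 read 8.94 on FLO1 flight replicate 1 and 7.24 on replicate 2, against 7.16, 6.99 and 7.31 on FLO1 ground arrays, and 8.11 on FLO8 flight replicate 2, against 6.75 to 7.67 on FLO8 ground arrays.

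**Figure D4:**
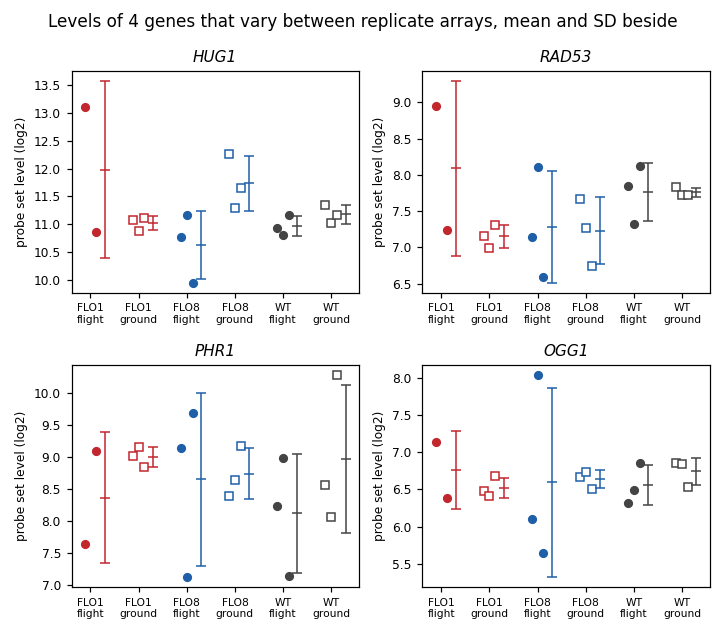
Log2 probe set level (y axis) of HUG1, RAD53, PHR1 and OGG1 on each array, by strain, with filled symbols for microgravity, open symbols for ground, and the mean and SD of each group beside them (n = 3, and 2 for FLO1 in microgravity). Single flight arrays stand far from their replicates, such as 13.12 for HUG1 on FLO1 replicate 1 and 8.04 for OGG1 on FLO8 replicate 2.

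Flight replicates differed from each other more than ground replicates did in the engineered strains. The SD of flight arrays was larger than that of ground arrays for 31 of the 39 genes in the FLO1 strain, 38 in the FLO8 strain and 23 in WT, where all genes gave 81.8%, 89.0% and 61.0%. The median SD of the 39 genes was 0.25 in flight and 0.07 on the ground in FLO1, 0.37 and 0.12 in FLO8, and 0.21 and 0.17 in WT. The counts lie near the background of all genes, and the FLO1 flight SD rests on 2 arrays.

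**Figure D5:**
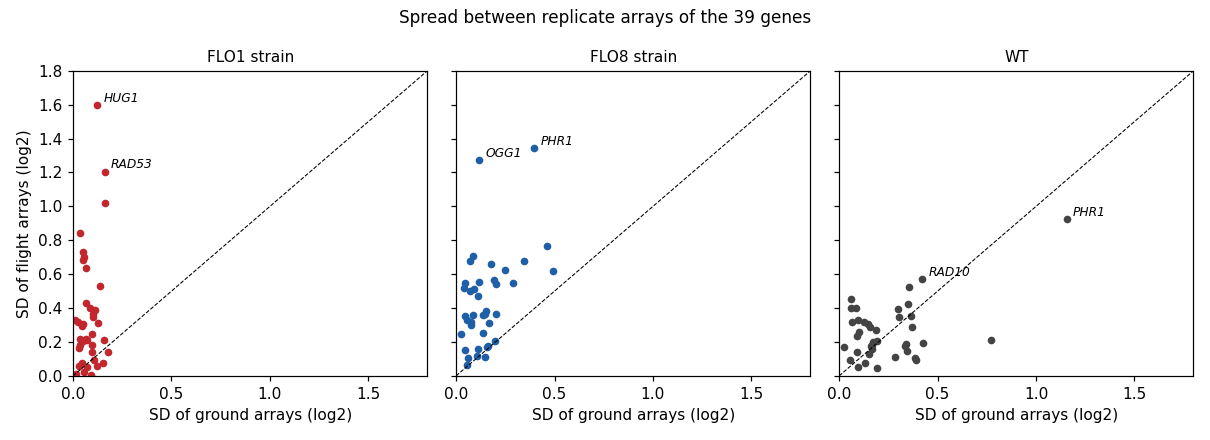
SD between flight arrays (y axis, log2) against SD between ground arrays (x axis, log2) for each of the 39 genes, in 1 panel per strain, with a dashed line where the SDs are equal. In the FLO8 strain 38 of 39 genes lie above the line, in the FLO1 strain 31 and in WT 23.

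The engineered strains and WT were compared within each condition. An effect of the construct, of the clone and of the culture cannot be told apart here. These comparisons share the WT arrays. The fit shared 1 spread per gene over all groups, although flight arrays of the engineered strains varied more than ground arrays. This can overstate the SE of a ground difference and understate that of a flight difference. On the ground 0 of 39 genes passed between the FLO1 strain and WT (0.0367% of all genes), with 2 at an unadjusted p under 0.05 (1.38% of all genes). RAD52 averaged 8.29 in FLO1 and 8.64 in WT, a difference of -0.35 (SE 0.15), and MEC1 9.28 in FLO1 and 8.96 in WT, a difference of 0.32 (SE 0.15), each with an adjusted p of 1.00 and with groups that did not overlap. FLO1 ground arrays lay above WT ground arrays without overlap for 6 of the 39 genes (11.2% of all genes). They lay below for 4 (7.73%). Between the FLO8 strain and WT on the ground 0 of 39 passed (0.0367%), with 2 at the unadjusted threshold (3.56% of all genes). MAG1 averaged 10.55 in FLO8 and 10.91 in WT (-0.36, SE 0.16) and SGS1 9.14 in FLO8 and 8.78 in WT (0.36, SE 0.17), both at an adjusted p of 0.998. With array weights 2 of the 39 were called between FLO1 and WT on the ground (9.19% of all genes). The same setting called 5 between FLO8 and WT on the ground (11.8%).

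In flight 0 of 39 genes passed between FLO1 and WT (0.0367% of all genes) and 2 had an unadjusted p under 0.05 (7.76%). RAD55 averaged 8.18 in FLO1 and 7.73 in WT (0.45, SE 0.18) and RAD52 8.94 in FLO1 and 8.53 in WT (0.41, SE 0.17), both with an adjusted p of 0.573. Between FLO8 and WT in flight 0 of 39 passed (0.0367%), and 5 had an unadjusted p under 0.05 (9.98% of all genes). RAD14 averaged 9.60 ± 0.37 in FLO8 and 10.27 ± 0.18 in WT (SD, n = 3 each), a difference of -0.67 (SE 0.18, adjusted p = 0.191 in limma), and every FLO8 flight array lay below every WT flight array. FLO8 flight arrays lay below WT flight arrays without overlap for 3 of the 39 genes (5.14% of all genes). RAD55 averaged 8.23 in FLO8 and 7.73 in WT (0.50, SE 0.16, adjusted p = 0.303 in limma). On the ground RAD55 averaged 8.05 in FLO8, 7.97 in FLO1 and 7.80 in WT. Of the 39 differences between FLO8 and WT in flight 11 lay above 0 and 28 below, with a median of -0.11. Over all genes 47.5% lay above 0, with a median of -0.02.

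The flight difference of one strain minus that of another was tested directly, and no gene of the set or of the whole array passed in any pair of strains (0% of all genes). RAD52 had a flight difference larger by 0.76 in FLO1 than in WT (SE 0.23, adjusted p = 0.994) and by 0.59 in FLO8 than in WT (SE 0.22, adjusted p = 0.998). MAG1 had one larger by 0.45 in FLO1 than in WT (SE 0.24, adjusted p = 0.994). SGS1 differed by -0.65 between FLO8 and WT (SE 0.24, adjusted p = 0.998). HUG1 and RAD16 differed by -2.07 (SE 0.66) and -0.74 (SE 0.32) between FLO8 and FLO1, both at an adjusted p of 0.998. With FLO1 flight replicate 1 as the single FLO1 flight array, the HUG1 value was -3.20. Over the 11 fits that left out 1 array it ran from -3.20 to -0.94. On FLO1 flight replicate 1 HUG1 was 2.09 from the FLO1 ground mean, and on replicate 2 it was -0.17 from it. Before adjustment a p under 0.05 was reached by 1 gene of the 39 between FLO1 and WT (3.51% of all genes), 3 between FLO8 and WT (2.95%) and 2 between FLO8 and FLO1 (3.38%).

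A longer list of 94 other checkpoint and repair genes was read alongside and gave 90 measured genes, with DDI2 and DDI3 read as 1. None passed in the flight comparison of a single strain. In the average over strains 5 rose and 2 fell of the 90, with 58 above 0 and a median difference of 0.07, beside 2.31% of all genes called higher and 2% called lower. The 5 that rose were RAD26 (0.43, adjusted p = 0.0127), for repair of transcribed strands, PSO2 (0.38, adjusted p = 0.0271), for crosslinks, DNL4 (0.39, adjusted p = 0.0315), the end-joining ligase, MLH3 (0.38, adjusted p = 0.0433), a mismatch repair protein, and DNA2 (0.46, adjusted p = 0.0467), a nuclease and helicase. CSM2, a gene of homologous recombination, fell by 0.38 (adjusted p = 0.0233). The count of 7 became 24 without the 4 arrays that stood apart (18.7% of all genes were then called), 17 with array weights, 4 with the replicate number as a block and 0 with the 3′ minus 5′ covariate, and ran from 1 to 12 with any one array left out. RAD26 was called in each of the 17 fits that left out 1 array.

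RNR1, the main large subunit of ribonucleotide reductase and a gene of late G1 phase, fell by 1.08 log2 units on average (SE 0.25, adjusted p = 0.0332). It read 7.62 and 7.95 on FLO1 flight arrays, against 8.44, 8.36 and 8.74 on FLO1 ground arrays. FLO8 flight arrays read 7.23, 8.96 and 7.29, against 9.08, 9.30 and 7.87 on the ground. WT flight arrays read 7.16, 7.68 and 7.14, against 8.56, 9.08 and 9.14. Flight was below ground without overlap in the FLO1 strain and WT, and in the FLO8 strain flight replicate 2 lay among the ground arrays. RNR2, RNR3 and RNR4 had average differences of 0.10, 0.04 and -0.05 (adjusted p = 0.634, 0.926 and 0.775), so 1 of the 4 subunit genes passed. The RNR1 call was kept without the 4 arrays that stood apart (-1.20, adjusted p = 0.00971) and ended with the 3′ minus 5′ covariate (-0.89, adjusted p = 0.636). It also ended, at adjusted p of 0.0506 to 0.0813 and differences of -1.14 to -0.99, without any one of FLO1 flight replicate 1, WT flight replicates 1, 2 and 3, FLO1 ground replicates 1, 2 and 3, FLO8 ground replicates 1 and 2, and WT ground replicates 1 and 2.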

How the data were processed

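Total RNA of 17 samples was hybridised to 1-colour arrays. The authors deposited log2 levels per probe set. Per the submitters' processing notes the authors used RMA, affy 1.26.1 and MAS5, and the role of MAS5 is not given in the sources used here. The values were not normalised again. Of 10928 probe sets, 5498 are annotated to S. cerevisiae. Where a gene had several probe sets (47 genes, none of the 39) that with the highest mean was kept, leaving 5449 genes. Background was set at 4.56 log2, the 95th percentile over 1747 probe sets for S. pombe. The number of arrays limits the precision.

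With limma 3.58.1 in R 4.3.3, all 17 arrays entered 1 model with a mean for each group, and eBayes was run without trend. Tests were two-sided, and p-values were adjusted by Benjamini-Hochberg over all genes within each of 11 comparisons (threshold 0.05). The code was tested on simulated data. The genes and lists were chosen with earlier results of these data known. Levels on every array are given for a gene called in any comparison, among the 4 lowest p of a flight comparison or the 2 lowest of another, or without overlap in 2 strains in 1 direction; PHR1, OGG1 and RAD53 were added for their spread. Alternatives were median centring, array weights, the replicate number as a block, the 3′ minus 5′ covariate, the background filter, eBayes with trend, another probe set per gene, only the arrays compared, and leaving out arrays. Some genes of the longer list are not reported here. The promoter search planned was not run, and no sequences were used here.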

Additional observations from a re-analysis of the deposited data

How the results depend on the processing

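In the comparisons where a gene was named by its low p, its direction was the same under every alternative run, except RAD16 in the FLO1 flight comparison, which was -0.031 with the 3′ minus 5′ covariate; the cause was not tested. The number of called genes among the 39 moved as follows. Array weights gave 2 in WT flight, 5 in FLO8 flight, 4 in the average, 2 between FLO1 and WT on the ground and 5 between FLO8 and WT on the ground, where 11%, 13.7%, 14.2%, 9.19% and 11.8% of all genes were called. Leaving out the 4 arrays that stood apart gave 3 in WT flight and 7 in the average (CRT10, MEC1, NTG1, RAD1, RAD2 and SGS1 higher, OGG1 lower), where 8.52% and 18.7% of all genes were called. The average gave 0 with the replicate block and 0 with the covariate. With 1 array left out the count ran from 0 to 3 in FLO1 flight and in the average, and from 0 to 1 between FLO1 and WT in flight, in the FLO1 minus WT response and in the FLO8 minus FLO1 response; the 3 were HUG1, RAD53 and XRS2 in FLO1 flight and MEC1, MRE11 and XRS2 in the average, both without FLO1 flight replicate 2, where 9.36% and 9.4% of all genes were called. For the 90 other pathway genes, whose alternatives were chosen after seeing the data, the average count of 7 was 17 with array weights, 24 without the 4 arrays, 4 with the block, 0 with the covariate and 1 to 12 with 1 array left out.

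The median of the 39 genes moved with the covariate to 0.095 in WT flight, 0.028 in FLO1 flight, 0.028 in the average, 0.038 between FLO1 and WT in flight, -0.014 in the FLO1 minus WT response and -0.11 in the FLO8 minus FLO1 response. Without the 4 arrays it was 0.12 in FLO1 flight, -0.015 between FLO1 and WT in flight, -0.080 in the FLO1 minus WT response and -0.030 in the FLO8 minus FLO1 response. Array weights gave 0.061 between FLO1 and WT in flight and -0.021 in the FLO1 minus WT response, and the replicate block gave 0.070 between FLO1 and WT in flight. With 1 array left out the median ran from 0.12 to 0.38 in FLO1 flight, from -0.036 to 0.13 in FLO8 flight, from 0.011 to 0.25 between FLO1 and WT in flight, from -0.065 to 0.18 in the FLO1 minus WT response, from -0.30 to 0.027 in the FLO8 minus WT response and from -0.27 to -0.066 in the FLO8 minus FLO1 response. The causes of these moves were not tested.

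Arrays of the same replicate number did not deviate together (correlations from -0.51 to 0.64, 17 of 40 over 0.1, against 37 of 80 for other numbers), so the numbers are not taken to pair the arrays. Fitting only the arrays compared was not run for the average, which uses all arrays. Where a setting left 1 array in a group, that array was assumed to vary like the other groups. All 39 genes lay above the background signal.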
